A study of Mus musculus with 14 samples.

Results

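Macrophages of the colon present antigen to T cells and at the same time tell them whether to respond. The second message travels through ligands on the macrophage surface that either costimulate the T cell (CD80 and CD86 through CD28, ICOSL through ICOS) or restrain it (PD-L1 and PD-L2 through PD-1), and through receptors such as CD40 by which the T cell answers back. In the intestine, interleukin-10 acts on macrophages through its receptor and is known to hold this part of their activation down. The 10 genes described here are *Cd40*, *Cd80*, *Cd86*, *Cd274* (PD-L1), *Pdcd1lg2* (PD-L2), *Icosl*, *Havcr2* (TIM-3), *Lgals9* (galectin-9), *Vsir* (VISTA) and *Cd83*. They were chosen by their role as ligands and receptors between macrophages and T cells and not by a rule on measured values. Earlier results of these data were known when they were chosen. All 10 of the 10 were found among the 24982 genes listed and among the 13136 tested.

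The RNA came from mature macrophages of the colonic lamina propria, sorted as CD45+ cells that were CD64+, CD11b+, MHCII+ and Ly6C- and lacked CD103 and Ly6G, from mice aged 5 weeks, and each library was made from a single mouse. Every mouse carried *Cdcs1*, a colitis susceptibility locus, including the WT controls (5 mice, labelled *Cdcs1* alone). IL10RAKO mice were *Cdcs1*, *Il10ra* -/- (n = 4), DKO mice were *Cdcs1*, *Il10ra* -/-, *Ccr2* -/- (n = 4), and the CCR2KO mouse was *Cdcs1*, *Ccr2* -/- (n = 1). Both null alleles were carried in all cells of the mouse and not in macrophages alone. In its histology the study's WT mice were heterozygous for *Il10ra* and *Ccr2*, and whether the sequenced WT mice were too is not given in the sources used here. WT mouse 11 and the CCR2KO mouse are absent from the normalized table of the study, and no reason is given. They are therefore reported as values only, and genotypes were compared over 12 libraries (n = 4 each).

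The 12 libraries held 13085287 to 21216468 counted reads, WT mouse 11 held 12153000 and the CCR2KO library 17112375. *Il10ra* was at 217 to 380 CPM (reads of the gene relative to the scaled total of the library) in WT against 4.89 to 11.2 in IL10RAKO and 3.41 to 7.59 in the DKO mice, and *Ccr2* was at 3.92 to 6.68 in DKO and 4.30 in the CCR2KO library against 361 CPM or more in the 12-library WT and IL10RAKO mice. Both knocked-out genes therefore followed the labels. Summed over 10 macrophage markers, CPM was 14380 to 22363 in WT against 16417 to 26226 in IL10RAKO and 14990 to 23144 in the DKO mice. *Lyz2* was the largest part of this sum, at a mean of 7559, 9668 and 10335 CPM in WT, IL10RAKO and DKO. Of the 10 markers, 1 (*Fcgr1*) rose in IL10RAKO against WT (edgeR, adjusted p under 0.05). In DKO 1 rose (*Mertk*) and 2 fell, *Adgre1* from 740 to 358 CPM and *Cx3cr1* from 389 to 169 CPM. Among all genes 8.7% rose in IL10RAKO, and 9.23% rose and 9.22% fell in DKO. Some markers of other cells also differed between genotypes. The summed CPM of 6 fibroblast markers was 294 to 577 in WT. It was 15.0 to 53.7 in IL10RAKO and 16.1 to 67.0 in the DKO mice. The 5 neutrophil markers, among them *S100a9* with 0 reads in WT, summed to 73.5 to 117, 134 to 295 and 151 to 259. Most of the neutrophil sum was *Csf3r*, at a mean of 87.3, 198 and 181 CPM, while *Ly6g* was at 0.0147, 0.203 and 0.385. T and NK cell markers summed to 16.2 to 42.6, 24.1 to 55.1 and 26.99 to 78.5 CPM, markers of B and plasma cells to 527 to 1847, 400 to 1093 and 490 to 1898, and epithelial markers to 42.9 to 946, 36.4 to 160 and 129 to 182, in the same order. In bulk RNA of this kind, fewer cells of one type and less RNA per cell cannot be told apart.

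With *Il10ra* absent, 6 of the 10 genes rose and none fell. *Cd274* and *Pdcd1lg2*, which encode the ligands of PD-1, rose most (9.17-fold and 7.40-fold in IL10RAKO), followed by *Cd40* (4.11-fold), *Cd80* (3.10-fold), *Cd86* (2.35-fold) and *Havcr2* (2.08-fold). *Icosl*, *Lgals9*, *Vsir* and *Cd83* did not pass the test. In DKO mice the same 6 genes passed, again all higher, and no member passed between DKO and IL10RAKO mice. Among all 13136 genes, 8.7% rose and 7.1% fell in IL10RAKO against WT, and 9.23% rose and 9.22% fell in DKO against WT (edgeR quasi-likelihood test, adjusted p under 0.05). At an unadjusted p under 0.05 the members counted were 6 in IL10RAKO, all higher, and 7 in DKO, the added gene being *Vsir*, which was lower. At that threshold 3818 of all 13136 genes counted in IL10RAKO and 4107 in DKO, in either direction. The median log2 fold change of the 10 genes was 1.14 in IL10RAKO and 1.04 in DKO, against -0.07 and -0.06 over all genes tested. The 2 comparisons share their WT libraries, so the DKO values are not a separate measurement of the WT level.

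**Figure D1:**
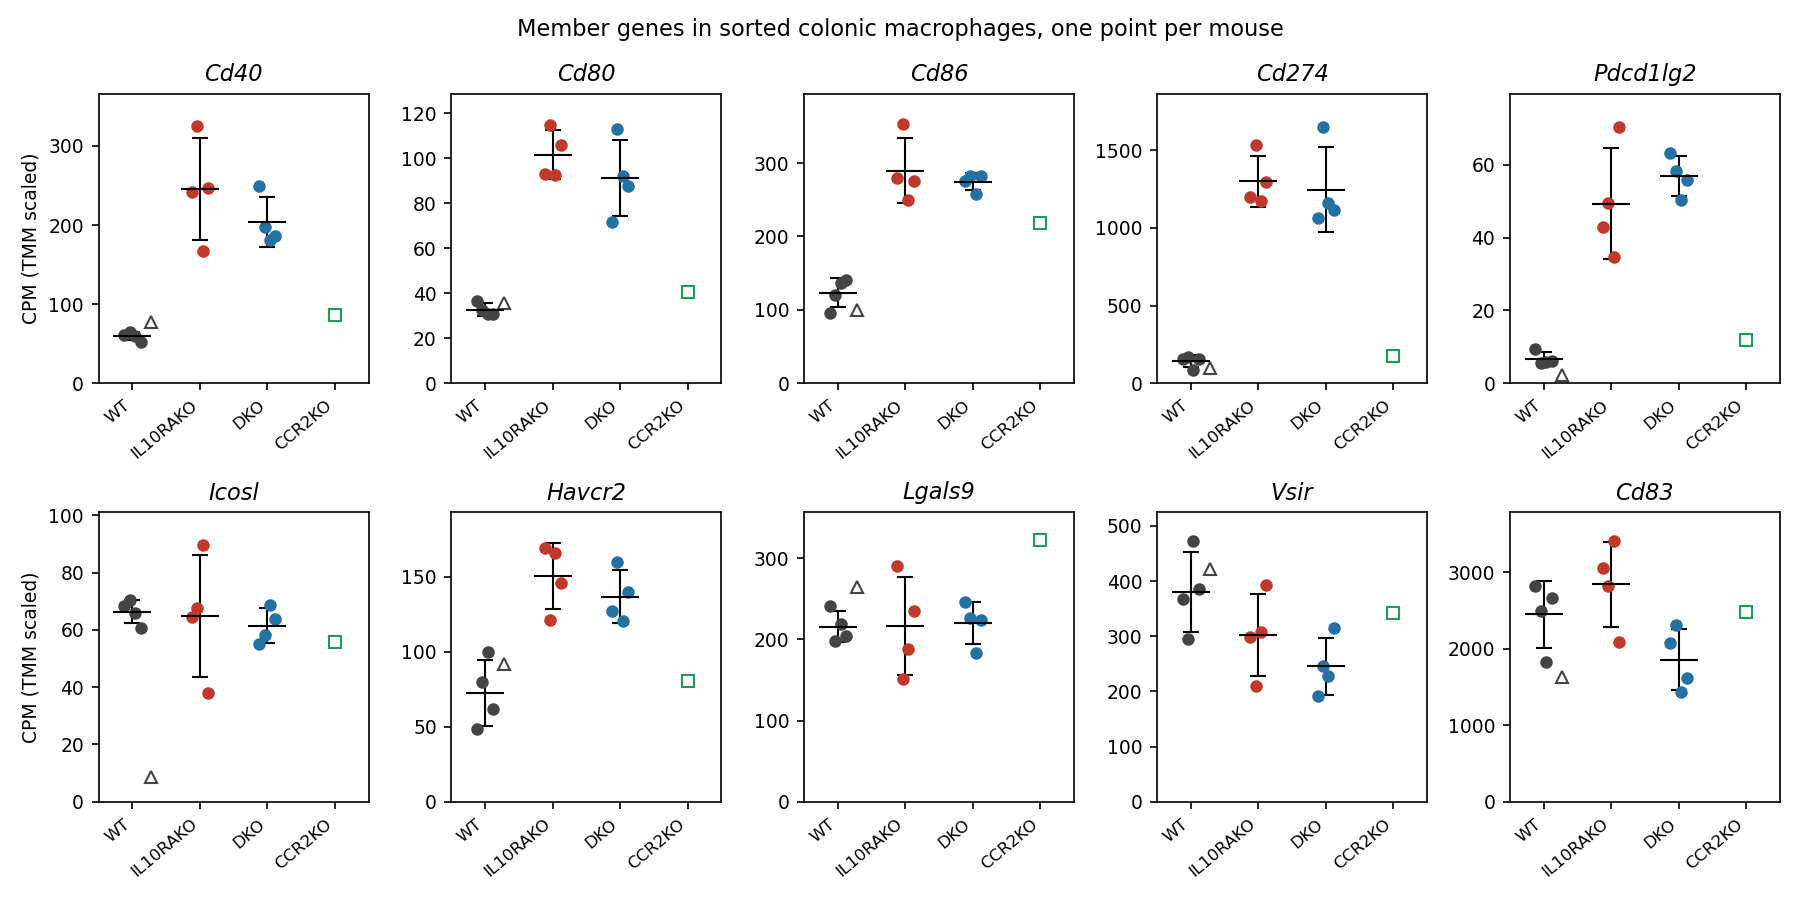
CPM after TMM scaling (y axis, linear, from 0) of each of the 10 genes by genotype, with 1 point per mouse, the mean as a bar and the SD as whiskers (n = 4). The open triangle is WT mouse 11 and the open square is the CCR2KO mouse, which entered no test. For *Cd274* the WT points lie at 85.7 to 170 CPM and the 8 points of both *Il10ra* -/- genotypes lie at 1067 to 1649 CPM.

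PD-L1, the product of *Cd274*, and PD-L2, the product of *Pdcd1lg2*, both bind PD-1 on T cells and restrain them. Their genes are neighbours on chromosome 19 (GRCm38, both on the plus strand): *Cd274* spans chr19:29367455-29388095 and *Pdcd1lg2* chr19:29410919-29471161, with 22823 bases between them. *Cd274* CPM was 157, 170, 85.7 and 153 in WT mice 4, 5, 10 and 13. It was 1196, 1533, 1174 and 1293 in IL10RAKO mice 1, 2, 7 and 8, and 1067, 1649, 1158 and 1115 in the DKO mice 3, 9, 12 and 14. The lowest *Il10ra* -/- mouse was thus far above the highest WT mouse, and IL10RAKO and DKO mice overlapped. The log2 fold change was 3.20 ± 0.231 (SE, 95% confidence interval 2.70 to 3.69) in IL10RAKO, with an adjusted p of 1.26e-06 in edgeR, and 3.14 ± 0.230 in DKO (adjusted p = 1.17e-06, edgeR). Ordered by p-value, *Cd274* was 12th of all genes in IL10RAKO against WT. Of its exon bases, 511 (14.1%) are shared with the antisense gene AC119228.1, and since the strand of counting is not stated, reads of these could not be assigned to one strand.

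*Pdcd1lg2* was the least abundant member in WT. Its CPM was 9.41, 5.51, 5.72 and 5.99 in WT mice 4, 5, 10 and 13, from 90 to 197 reads per library. It was 43.0, 49.5, 34.6 and 70.3 in IL10RAKO mice 1, 2, 7 and 8, and 63.3, 58.2, 50.3 and 55.7 in the DKO mice 3, 9, 12 and 14. Neither *Il10ra* -/- group overlapped WT, although WT mouse 4 stood above the other 3 WT mice. The log2 fold change was 2.89 ± 0.245 in IL10RAKO (adjusted p = 3.29e-06, edgeR) and 3.09 ± 0.247 in DKO (adjusted p = 1.79e-06, edgeR), which is 8.54-fold.

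CD80 and CD86 are the B7 ligands that costimulate T cells through CD28 and are bound more tightly by the inhibitory receptor CTLA-4. Both genes lie on chromosome 16, *Cd86* at chr16:36603869-36666081 and *Cd80* at chr16:38455561-38496335 (GRCm38). *Cd80* CPM was 36.7, 32.6, 30.9 and 30.8 in WT against 92.9, 115, 92.8 and 106 in IL10RAKO and 71.8, 113, 92.3 and 87.6 in the DKO mice, in the order of mice given for *Cd274*. *Cd86* CPM was 96.3, 121, 136 and 140 in WT against 280.2, 353, 249.8 and 276 in IL10RAKO and 275, 282, 258 and 283 in the DKO mice. For both genes every *Il10ra* -/- mouse was above every WT mouse. *Cd80* rose by 1.63 ± 0.163 on the log2 scale in IL10RAKO (adjusted p = 1.19e-05, edgeR) and by 1.48 ± 0.163 in DKO (adjusted p = 2.71e-05). *Cd86* rose by 1.23 ± 0.157 (adjusted p = 0.000105, edgeR) and by 1.16 ± 0.157 (adjusted p = 0.000153). The DKO mice were the most alike of the genotypes in *Cd86*, with a mean of 274 CPM ± 11.4 (SD, n = 4).

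CD40 receives CD40 ligand from activated T cells and licenses the presenting cell. *Cd40* (chr2:165055627-165072948) was at 61.4, 64.8, 59.9 and 52.7 CPM in WT mice 4, 5, 10 and 13. It was at 242, 325, 168 and 247 CPM in IL10RAKO mice 1, 2, 7 and 8 and at 249.8, 198, 181 and 186 CPM in the DKO mice 3, 9, 12 and 14. The WT mice were close together, the IL10RAKO mice were spread widely, and no *Il10ra* -/- mouse reached down to the WT range. *Cd40* rose by 2.04 ± 0.195 on the log2 scale in IL10RAKO (adjusted p = 8.00e-06, edgeR) and by 1.77 ± 0.193, or 3.41-fold, in DKO (adjusted p = 2.53e-05).

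TIM-3, the product of *Havcr2*, is an inhibitory receptor of T cells that myeloid cells also carry, and galectin-9, the product of *Lgals9*, is one of its ligands. Both genes lie on chromosome 11, *Havcr2* at chr11:46454935-46481255 and *Lgals9* at chr11:78962974-78984946. *Havcr2* CPM was 48.4, 80.0, 99.5 and 62.0 in WT mice 4, 5, 10 and 13, 169, 121, 165 and 146 in IL10RAKO mice 1, 2, 7 and 8, and 127, 159.9, 120.3 and 139 in the DKO mice 3, 9, 12 and 14. The groups did not overlap, but the highest WT mouse and the lowest *Il10ra* -/- mice were close. *Havcr2* rose by 1.05 ± 0.208 on the log2 scale in IL10RAKO (adjusted p = 0.00309, edgeR) and by 0.91 ± 0.207 in DKO (adjusted p = 0.00683). *Lgals9*, in contrast, was at 216 CPM ± 19.1 in WT against 216 ± 60.1 in IL10RAKO and 219.95 ± 26.2 in the DKO mice (SD, n = 4 each). The 95% confidence interval of its log2 fold change ran from -0.40 to 0.40 in IL10RAKO (adjusted p = 0.992, edgeR).

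The other 3 members that did not pass are *Icosl*, *Vsir* and *Cd83*. ICOSL costimulates T cells that already carry ICOS, and *Icosl* (chr10:78069302-78083913) was at 66.4 CPM ± 4.11 in WT against 64.9 ± 21.2 in IL10RAKO and 61.4 ± 6.11 in the DKO mice (SD, n = 4 each). Its IL10RAKO mice were the most spread, from 37.9 in mouse 8 to 89.7 in mouse 7, on either side of all 4 WT mice. The interval of its log2 fold change was -0.48 to 0.42 in IL10RAKO and -0.56 to 0.33 in DKO.

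VISTA restrains T cells and is known to be abundant on resting myeloid cells. *Vsir* (chr10:60346851-60372684) was at 367, 295, 472 and 386 CPM in WT mice 4, 5, 10 and 13, at 299, 209.6, 307 and 393 in IL10RAKO mice 1, 2, 7 and 8 and at 192, 246, 229 and 315 in the DKO mice 3, 9, 12 and 14. The DKO and WT mice overlapped only through DKO mouse 14 and WT mouse 5. The log2 fold change was -0.33 (interval -0.78 to 0.12, adjusted p = 0.323 in edgeR) in IL10RAKO and -0.63 (interval -1.08 to -0.18, adjusted p = 0.0519, unadjusted p = 0.00972) in DKO. Its call depended on the mice in the fit: it passed in DKO without any 1 of IL10RAKO mice 2 and 8, WT mouse 5 and DKO mouse 14, and the adjusted p ranged from 0.0355 to 0.146 as each mouse was left out.

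CD83 marks activated presenting cells and is known to keep MHC class II and CD86 at the surface by opposing the ubiquitin ligase MARCH1. *Cd83* (chr13:43784775-43803132) had the highest CPM of all members in every genotype. It was at 2824, 2500.0, 1830 and 2665 CPM in WT mice 4, 5, 10 and 13, at 3059, 2817, 3411 and 2089 in IL10RAKO mice 1, 2, 7 and 8 and at 2078, 2306, 1431 and 1625 in the DKO mice 3, 9, 12 and 14. The 3 genotypes overlapped, with 3 IL10RAKO mice above every DKO mouse. The log2 fold change against WT was 0.21 in IL10RAKO (adjusted p = 0.530, edgeR) and -0.40 in DKO (adjusted p = 0.195).

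Whether the added loss of *Ccr2*, the receptor that brings monocytes into the colon, moved these genes was read from DKO against IL10RAKO. None of the 10 passed (edgeR, adjusted p = 0.99992 for each), DESeq2 and limma also called 0, and 1 of the 10, *Cd83*, had an unadjusted p under 0.05 (0.00894). Of all genes, 0.0152% rose and 0.0305% fell in this comparison, while 388 had an unadjusted p under 0.05. *Cd83* differed by -0.61 ± 0.203 on the log2 scale (interval -1.05 to -0.18). For the other 9 genes the 95% interval lay within 1 log2 unit of 0 on both sides: *Cd274* differed by -0.06 (-0.51 to 0.40), *Pdcd1lg2* by 0.21 (-0.28 to 0.69), *Cd40* by -0.27 (-0.67 to 0.13) and *Vsir* by -0.30 (-0.75 to 0.15). Differences within these intervals remain possible with 4 mice against 4.

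**Figure D2:**
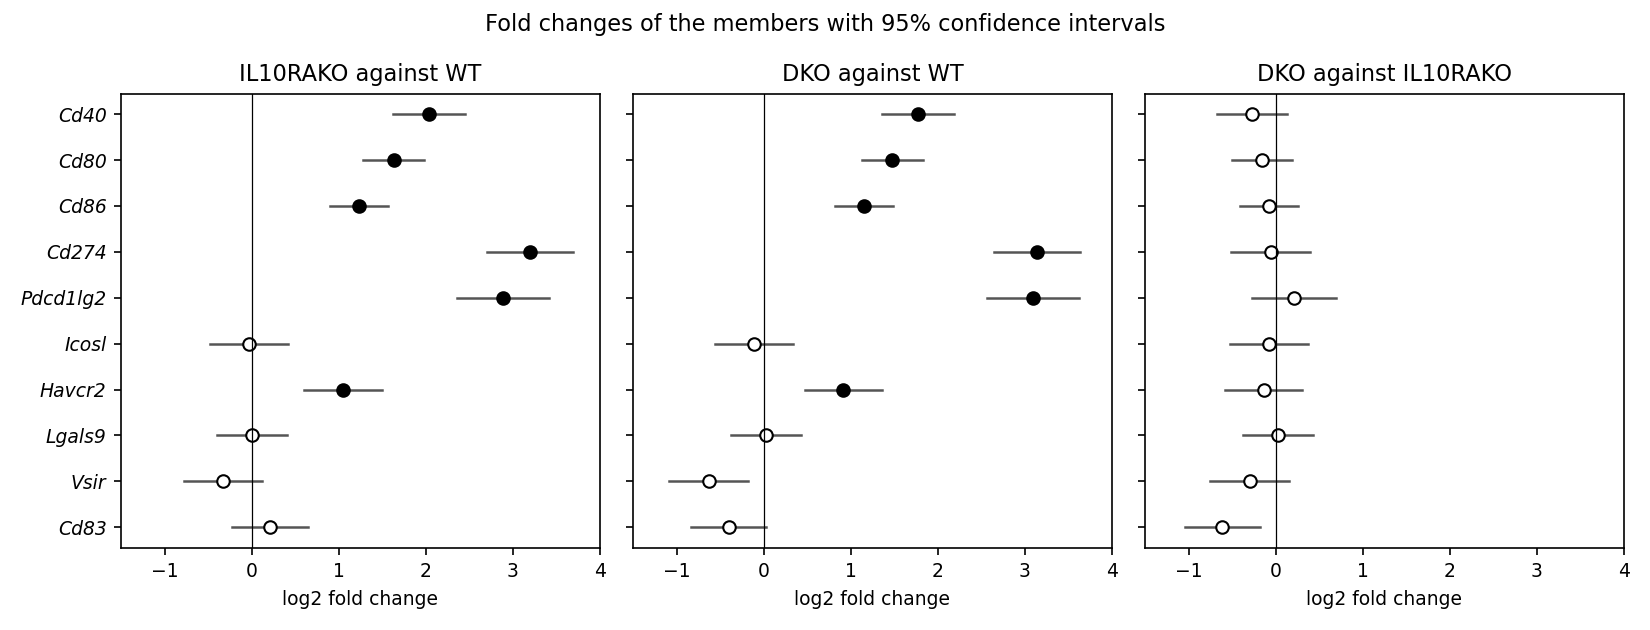
Log2 fold changes (x axis) of the 10 genes in the 3 comparisons, with 95% confidence intervals as lines and filled points for an adjusted p under 0.05 (edgeR, 4 mice each). The 6 filled points against WT lie between 0.91 and 3.20, and no point is filled in DKO against IL10RAKO.

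The loss of *Ccr2* with *Il10ra* intact was seen in 1 CCR2KO mouse, without a replicate check. *Cd86* was at 218 CPM there, above the 4 WT mice and below every *Il10ra* -/- mouse. *Cd40* (86.4), *Cd80* (40.7), *Cd274* (174) and *Pdcd1lg2* (11.8) lay just above the WT range and far below both *Il10ra* -/- genotypes. *Havcr2* (80.7), *Vsir* (341) and *Cd83* (2478) lay within the WT range, *Icosl* (55.9) below it and *Lgals9* (322) above it. In WT mouse 11, which the comparisons leave out, *Cd80* was at 35.7 CPM, *Cd86* at 100.3, *Cd274* at 97.4, *Havcr2* at 92.0 and *Vsir* at 422, all within the range of the other WT mice. Its *Pdcd1lg2* (2.12 CPM, from 29 reads), *Icosl* (8.50) and *Cd83* (1628) were below that range, and its *Cd40* (77.3) and *Lgals9* (265) above it.

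To compare genes with each other, CPM was divided by the exon length of the gene in kilobases. In WT the mean level per kilobase was 954 for *Cd83*, 101 for *Lgals9*, 75.8 for *Vsir*, 39.1 for *Cd274*, 33.6 for *Cd86*, 26.6 for *Havcr2*, 17.5 for *Cd40*, 14.4 for *Icosl*, 8.84 for *Cd80* and 3.39 for *Pdcd1lg2*. Among neighbours in this order, *Lgals9* and *Vsir*, *Cd274* and *Cd86*, *Cd86* and *Havcr2*, and *Havcr2* and *Cd40* overlapped between mice. In both *Il10ra* -/- genotypes *Cd274* stood second, at 359 per kilobase in IL10RAKO and 344 in the DKO mice, apart from *Cd83* above it (1106 and 723) and *Lgals9* below it (101 and 103). *Icosl* had the lowest level in both (14.1 and 13.3), below *Pdcd1lg2* (25.2 and 29.01), which it overlapped in IL10RAKO mice, and *Cd80* (27.4 and 24.6). *Vsir* stood at 60.3 and 49.0, and the levels from *Lgals9* to *Havcr2* overlapped from neighbour to neighbour in IL10RAKO mice.

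Ratios within a library do not depend on how the library was scaled, and they are given as a description. The ratio of *Cd274* to *Cd86* per kilobase was 1.21 ± 0.440 in WT against 4.55 ± 0.225 in IL10RAKO and 4.59 ± 0.922 in the DKO mice (SD, n = 4 each), so the level of the inhibitory ligand was higher relative to the costimulatory one. The ratio was at most 1.65 in a WT mouse and at least 3.92 in an *Il10ra* -/- mouse. The ratio of *Cd274* to *Vsir*, both inhibitory, was 0.251 to 0.801 in WT against 4.56 to 10.1 in IL10RAKO and 4.90 to 9.27 in the DKO mice. *Cd86* to *Vsir* moved less, from 0.359 to 0.560 in WT to 0.964 to 2.31 and 1.23 to 1.96. In contrast, the ratios within the pairs of ligands that share a receptor overlapped between genotypes: *Cd80* to *Cd86* was 0.218 to 0.377, 0.322 to 0.379 and 0.258 to 0.396, and *Cd274* to *Pdcd1lg2* was 8.12 to 16.7, 9.96 to 18.4 and 9.12 to 15.3. For *Cd80* to *Cd86* the overlap of WT with IL10RAKO lay in WT mouse 4 alone (0.377). WT mice 5, 10 and 13 were at 0.267, 0.225 and 0.218.

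**Figure D3:**
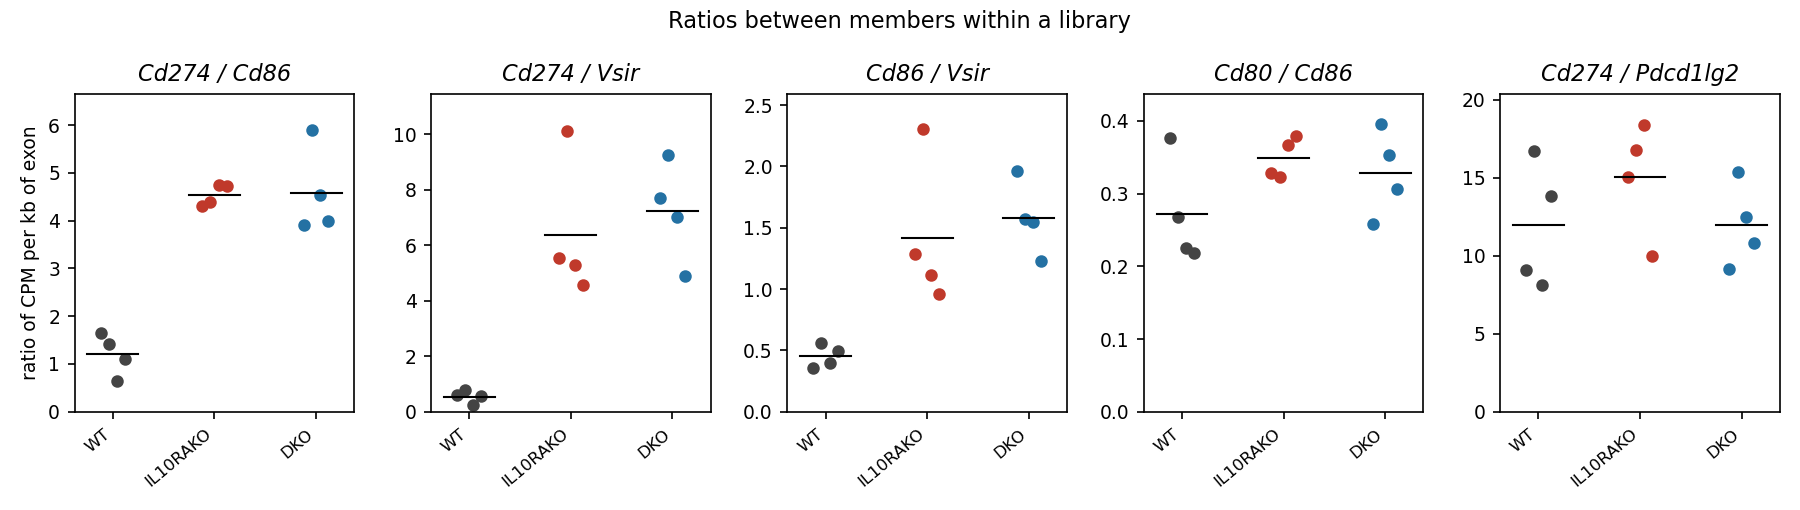
Ratios between members within a library, per kilobase of exon (y axis, linear, from 0), with 1 point per mouse and the mean as a bar (n = 4 per genotype). The ratios of *Cd274* to *Cd86* and to *Vsir* separate WT from the *Il10ra* -/- genotypes, and the ratios of *Cd80* to *Cd86* and *Cd274* to *Pdcd1lg2* overlap.

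Promoters are shown for *Cd274*, *Pdcd1lg2*, *Cd80* and *Havcr2*, 4 of the 6 members that rose together. RefSeq windows on GRCm38.p6 were matched for 7 of the 10 members, all but *Cd40*, *Cd86* and *Cd83*, and the 250 bases before the transcript start were searched on both strands. Each is given 5′ to 3′ on the plus strand, which is the strand of all 4 genes, with matches to the kappaB letters GGGNNNNNCC in capitals. They are chr19:29367188-29367437, chr19:29410669-29410918, chr16:38458683-38458932 and chr11:46454681-46454930, in the order below, and the *Cd80* window lies inside the GENCODE gene because its RefSeq start is downstream of the GENCODE one.
Cd274: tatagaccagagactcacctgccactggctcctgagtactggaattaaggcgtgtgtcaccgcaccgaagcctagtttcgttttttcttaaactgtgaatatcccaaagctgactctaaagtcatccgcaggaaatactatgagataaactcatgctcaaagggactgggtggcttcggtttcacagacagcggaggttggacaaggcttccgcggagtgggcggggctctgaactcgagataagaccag
Pdcd1lg2: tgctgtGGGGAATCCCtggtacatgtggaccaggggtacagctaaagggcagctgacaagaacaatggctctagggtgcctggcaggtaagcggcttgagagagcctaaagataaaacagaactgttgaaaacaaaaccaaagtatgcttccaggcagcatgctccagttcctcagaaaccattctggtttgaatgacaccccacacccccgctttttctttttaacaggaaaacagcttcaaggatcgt
Cd80: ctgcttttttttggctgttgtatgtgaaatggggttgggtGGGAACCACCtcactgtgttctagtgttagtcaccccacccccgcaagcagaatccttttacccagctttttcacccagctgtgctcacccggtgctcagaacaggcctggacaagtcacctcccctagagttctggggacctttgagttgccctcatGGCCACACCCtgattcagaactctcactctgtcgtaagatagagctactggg
Havcr2: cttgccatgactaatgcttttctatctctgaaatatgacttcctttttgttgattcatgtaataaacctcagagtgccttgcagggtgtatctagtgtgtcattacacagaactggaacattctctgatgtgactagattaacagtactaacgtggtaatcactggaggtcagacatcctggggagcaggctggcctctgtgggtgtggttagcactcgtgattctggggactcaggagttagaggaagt

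The *Pdcd1lg2* window holds 1 match to the kappaB letters, GGGGAATCCC, which begins 244 bases before the start, and the *Cd80* window holds 2, which begin 210 and 52 bases before it. The windows of *Cd274* and *Havcr2* hold none. In all, 4 of 7 members had a match, *Icosl* and *Lgals9* being the others, against 45.8% of 32851 promoters of the same length. TTCNNNGAA, the palindrome of the interferon-gamma-activated sequence, was in 0 of 7 member windows and in 7.02% of promoters. The interferon element core GAAANNGAAA was in 1 of 7, that of *Lgals9*, which begins 55 bases before the start, and in 2.98% of promoters. The 2 kinds of match in the *Lgals9* window did not overlap. A match of this kind is a description of the sequence and not a measured site.

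Genes that regulate these ligands were read from the same fit. Of 19 regulators tested, 8 rose in IL10RAKO, and in DKO 12 rose and 1 fell. Of all genes, 8.7% rose and 7.1% fell in IL10RAKO, and 9.23% rose and 9.22% fell in DKO. *Irf1*, an interferon-induced transcription factor, rose by 1.75 on the log2 scale in IL10RAKO and by 1.74 with both genes absent (adjusted p = 9.93e-05 and 8.90e-05, edgeR), *Socs1*, a feedback inhibitor of the same signal, by 2.30 and 2.54 (adjusted p = 0.000601 and 0.000250), and *Traf1*, an adaptor of TNF receptors, by 1.83 and 1.47 (adjusted p = 0.000915 and 0.00361). *Cmtm4*, whose product stabilises PD-L1, fell by 1.70 on the log2 scale in DKO (adjusted p = 0.0349) from 5.02 CPM ± 1.83 to 1.55 ± 0.468, and its log2 fold change in IL10RAKO was -1.49 (adjusted p = 0.0664). Its relative *Cmtm6*, named here after its values were seen, was at 290.0 ± 59.6, 293 ± 64.7 and 295 ± 27.4 CPM. *March1*, likewise named afterwards, rose in DKO by 0.73 (adjusted p = 0.0103), and its log2 fold change in IL10RAKO was 0.51 (adjusted p = 0.0702).

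Among 24 other costimulatory and checkpoint ligands, 18 could be tested. In IL10RAKO 3 rose and 1 fell, in DKO 4 rose and 2 fell, against 8.7% higher and 7.1% lower of all genes in IL10RAKO and 9.23% and 9.22% in DKO. The median log2 fold changes of the 18 were 0.37 and 0.21. *Sema4a*, a semaphorin that acts on T cells, was at 188 CPM ± 30.9 in WT against 455 ± 93.3 in IL10RAKO and 551 ± 90.0 in the DKO mice (log2 fold changes 1.28 and 1.55, adjusted p = 0.000382 and 6.71e-05, edgeR). *Icam1*, the adhesion ligand of LFA-1, rose by 0.91 and 0.82 (adjusted p = 0.00576 and 0.00949), and *Pvr*, the ligand of TIGIT and CD226, by 1.17 and 1.15 (adjusted p = 0.0168 and 0.0160). *Sirpa*, the receptor of CD47, rose in DKO by 0.69 (adjusted p = 0.0187). *Cd276* (B7-H3) fell by 1.48 on the log2 scale in IL10RAKO (adjusted p = 0.0315), from 35.8 CPM ± 10.2 to 12.8 ± 8.69, beside the fall of the fibroblast markers, a cell type that also carries it, and the part of the fibroblasts in it was not tested. *Cd48* and *Clec4g* fell in DKO (log2 fold changes -0.41 and -3.71, adjusted p = 0.0499 for both), the second from at most 46 reads in a library.

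The receptors on T cells that answer these ligands were also counted. Of 15 tested, 3 rose in each *Il10ra* -/- genotype and none fell. By comparison, 8.7% of all genes rose in IL10RAKO and 9.23% in DKO, while 7.1% and 9.22% fell. *Tnfrsf9* (4-1BB) was at 4.53 CPM ± 2.13 in WT against 62.7 ± 43.1 in IL10RAKO and 87.8 ± 25.2 in the DKO mice (log2 fold changes 3.79 and 4.28, adjusted p = 7.89e-05 and 2.83e-05, edgeR). *Ctla4*, the inhibitory receptor of CD80 and CD86, was at 8.36 ± 3.13, 26.7 ± 5.53 and 20.9 ± 10.2 CPM (adjusted p = 0.00431 and 0.0154), and *Tnfrsf4* (OX40) at 0.918 ± 0.945, 7.30 ± 3.11 and 5.79 ± 3.71 CPM (adjusted p = 0.0170 and 0.0267). Of these 3, only *Ctla4* is named here as a partner of members. *Cd28*, *Pdcd1*, *Icos* and *Cd40lg*, also partners of members, did not pass. Mean CPM in WT, IL10RAKO and DKO was 8.52, 4.09 and 3.49 for *Cd28* and 2.84, 2.22 and 1.35 for *Pdcd1*. It was 5.17, 7.12 and 7.03 for *Icos* and 0.778, 1.40 and 1.204 for *Cd40lg*. Of the T and NK cell markers tested, 0 of 7 passed in IL10RAKO and 1 of 7 in DKO (*Nkg7*). In WT, IL10RAKO and DKO, *Cd3d* was at a mean of 1.04, 3.03 and 2.63 CPM and *Cd3e* at 2.60, 1.15 and 0.789. *Cd3g* was at 2.71, 4.23 and 3.67 CPM, and *Lck*, the highest of these markers, at 15.9, 21.6 and 21.0. Which cells carried the receptor RNA was not tested.

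**Figure D4:**
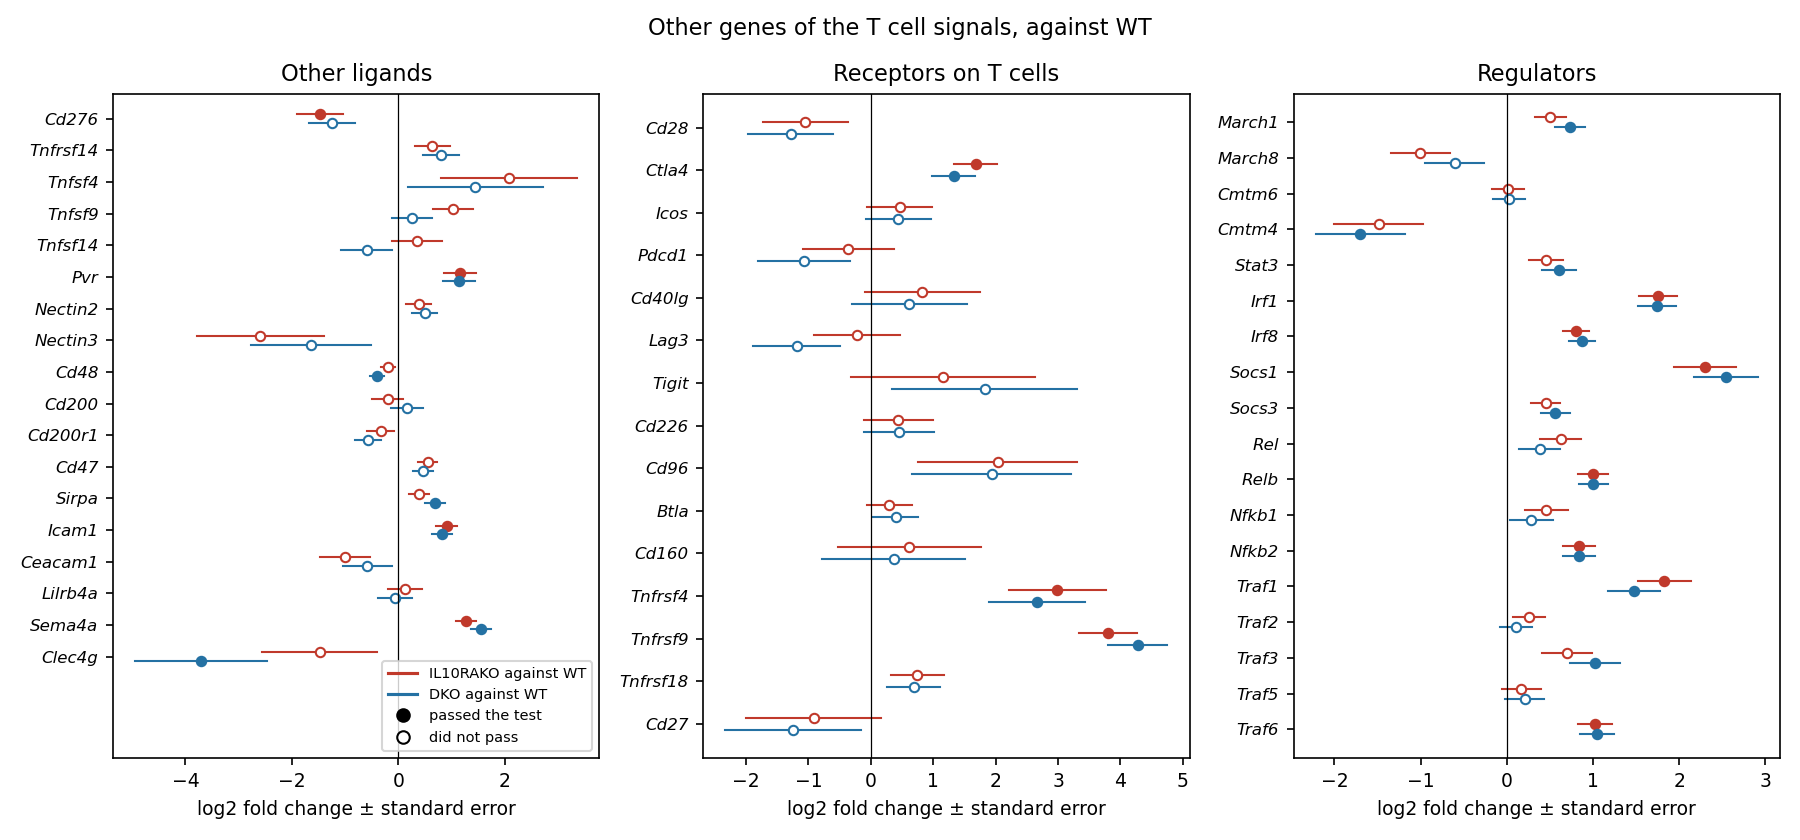
Log2 fold changes against WT (x axis) with the standard error as lines for tested genes of 3 lists, IL10RAKO in red and DKO in blue, with filled points for an adjusted p under 0.05 (edgeR, 4 mice per genotype). The largest filled values are those of *Tnfrsf9* (3.79 and 4.28) among the receptors and, of the regulators drawn, of *Socs1* (2.30 and 2.54).

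Markers of 2 other cell types that carry several members are given beside these results. Summed over 8 dendritic cell markers, CPM was 355 to 1475 in WT against 1626 to 2037 in IL10RAKO and 1116 to 1945 in the DKO mice. The rise of the sum lay in *Ccr7*, at 506 CPM ± 344, 1530 ± 208 and 1357 ± 394. Without it the other 7 markers, which moved in both directions, summed to 131 to 554, 186 to 496 and 143 to 259 CPM. Of the 8 markers, 4 rose in IL10RAKO (*Ccr7*, *Dpp4*, *Xcr1* and *Clec9a*). In DKO 3 rose (*Ccr7*, *Dpp4* and *Clec9a*) and 1 fell (*Cd209a*). Mean CPM in WT, IL10RAKO and DKO was 59.9, 106 and 103 for *Dpp4* and 186, 97.0 and 27.3 for *Cd209a*. It was 2.04, 11.1 and 4.42 for *Xcr1* and 2.18, 7.75 and 7.93 for *Clec9a*. Summed over 4 markers of Ly6C+ monocytes, CPM was 120.0 to 182 in WT. It was 367 to 1045 in IL10RAKO and 430.1 to 698 in the DKO mice, and 2 of 4 rose in each *Il10ra* -/- genotype. Among all genes, 8.7% rose and 7.1% fell in IL10RAKO, and 9.23% rose and 9.22% fell in DKO. The sort took Ly6C- and CD64+ cells and left out CD103+ and Ly6G+ cells, gates meant to remove monocytes, CD103+ dendritic cells and neutrophils. The part of either cell type in the 6 genes was not tested.

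The mice of a genotype did not rank the members alike. IL10RAKO mouse 2 was the highest of its group for *Cd40*, *Cd80*, *Cd86* and *Cd274* and the lowest for *Havcr2*, *Lgals9* and *Vsir*, while IL10RAKO mouse 7 was the lowest for the first 4 and for *Pdcd1lg2* and the highest for *Icosl* and *Cd83*. Among DKO mice, mouse 9 was the highest for 4 members (*Cd80*, *Cd274*, *Havcr2* and *Cd83*) and mouse 12 the lowest for 6.

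The gene most like each member was taken as the one with the smallest root mean square difference in log2 CPM over the 12 libraries, each profile centred on its own mean. For *Cd274* it was *Il1rn* (difference 0.25 log2 units), for *Pdcd1lg2* *Sod2* (0.22), for *Cd40* *Psmb9* (0.18), for *Cd80* *Clic4* (0.17), for *Cd86* *Gsdmd* (0.16) and for *Havcr2* *Fgl2* (0.18). For the members that did not pass it was *Ppp3ca* for *Icosl* (0.15), *Tmem9b* for *Lgals9* (0.087), *Hfe* for *Vsir* (0.13) and *Ddx39* for *Cd83* (0.21). *Il1rn*, which encodes the interleukin-1 receptor antagonist, was at 368 CPM ± 103 in WT against 2970 ± 845 in IL10RAKO and 2509 ± 492 in the DKO mice. Among the members themselves, the closest pair was *Cd80* with *Cd86* (0.29). For *Cd274* and *Pdcd1lg2* the nearest member of each was the other (0.39). Genes outside the members lay closer than the nearest member: 60 for *Cd80*, 116 for *Cd86*, 8 for *Cd274* and 19 for *Pdcd1lg2*.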

How the data were processed

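The authors sorted the macrophages, made SmartSeq v4 cDNA and, per the labels, aligned the reads to mm10 with STAR 2.5.1b after bcl2fastq 2.20. They deposited whole counts of reads per gene for 14 libraries, without normalization. A further deposited table holds pseudocounts, which are a score that edgeR 3.34.0 computes by bringing counts to one library size, for 13338 genes and 12 libraries. The annotation, the strand of counting and the treatment of reads with several positions are not given in the sources used here. The pseudocounts were used to choose the libraries and in 1 alternative.

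Genotypes came from the labels, which give no batch, sex or litter. In edgeR 4.0.16 (R 4.3.3) the counts of the 12 libraries were filtered with filterByExpr on the genotypes at a minimum count of 10, scaled by TMM and entered in 1 model (glmQLFit), from which glmQLFTest gave each comparison. Adjustment was by Benjamini-Hochberg over 13136 genes with a threshold of 0.05. CPM values are TMM-scaled and are relative to the genes each library shares with the others. A count of 3 reads corresponded to 0.141 to 0.229 CPM. No libraries of a genotype were duplicates (chi-square per degree of freedom 30.9 or more). The script was tested on simulated data. Exon lengths and positions came from GENCODE vM21 (GRCm38), where 10 of 10 members and 24490 of 24982 genes matched by symbol, and promoters from RefSeq GRCm38.p6. Gene symbols, written in capitals in the table, are given in mouse form. Plots used matplotlib 3.10.9 and pandas 2.3.3 under Python 3.11.15.

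The members, lists and tests were chosen with earlier results of these data known. Named were all 10 members, up to 4 genes in each direction of the ligand and regulator lists with the smallest adjusted p, partner receptors and the gene most like each member. In the regulator list 1 gene is counted but not reported here. Alternatives were DESeq2 1.42.0, limma 3.58.1 on log2(pseudocount + 1), RLE size factors, library totals without TMM, no filter or at least 10 reads in every library, 13 libraries with WT mouse 11, the 2 genotypes compared alone, the other deviance of glmQLFit, and leaving out each of 12 mice in turn. Each mouse is 1 replicate.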

Additional observations from a re-analysis of the deposited data

Results flagged for a closer look

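The values of the 10 genes were examined in 4 groups: WT, IL10RAKO, DKO, and WT with mouse 11 added. The 4 WT mice of the comparison were thus examined both with and without mouse 11, and the 40 sets are not independent. Of these 40 sets, 3 had a library set far apart from the rest of its group, where chance gives about 5%. *Cd274* in DKO mouse 9 was at 1649 CPM, against 1067 to 1158 in the other 3 DKO mice. *Pdcd1lg2* in WT mouse 4 was at 9.41 CPM, against 5.51 to 5.99 in the other WT mice of the comparison. *Icosl* in WT mouse 11 was at 8.50 CPM, against 60.9 to 70.4 in the other 4 WT mice.

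The 2 libraries outside the comparisons gave 8 values above all 4 WT mice. In the CCR2KO library *Cd40* was at 86.4 CPM (WT 52.7 to 64.8), *Cd80* at 40.7 (WT 30.8 to 36.7), *Cd86* at 218 (WT 96.3 to 140.0), *Cd274* at 174 (WT 85.7 to 170), *Pdcd1lg2* at 11.8 (WT 5.51 to 9.41) and *Lgals9* at 322 (WT 198 to 241). In WT mouse 11 *Cd40* was at 77.3 CPM and *Lgals9* at 265. Only values above the WT range were taken. *Icosl* in the CCR2KO library, and *Pdcd1lg2*, *Icosl* and *Cd83* in WT mouse 11, lay below it and are not among the 8. How many of all genes lay above the 4 WT mice in these libraries was not counted. Each value comes from a single library, so these differences have no replicate check. The CCR2KO library also had the highest summed CPM of B and plasma cell markers (2619) and of fibroblast markers (681), and WT mouse 11 that of epithelial markers (2424). The part of these cells in the values was not tested.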

How the results depend on the processing

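The 6 genes that rose kept their direction and passed in every alternative and with each mouse left out, in both comparisons with WT. Members past the threshold in IL10RAKO against WT numbered 6 in all settings but library totals without TMM (7, with *Vsir* at -0.65 on the log2 scale, adjusted p = 0.0347), and 0 in DKO against IL10RAKO in all. In DKO against WT there were 6 to 7 with each mouse left out, 7 with DESeq2, limma, 13 libraries, the 2 genotypes alone, the other deviance or at least 10 reads in every library, the added gene being *Vsir*, and 8 with library totals (*Vsir* -0.89 and *Cd83* -0.66). Over the alternatives the adjusted p of *Vsir* in DKO was 0.00670 to 0.0706. With library totals the median of all genes moved to -0.38 in IL10RAKO and -0.32 in DKO, and 23.8% and 25.9% of calls were higher, against 55.1% and 50.0% with TMM.

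Directions turned only for members near 0 (log2 fold changes). *Lgals9* in IL10RAKO was -0.00015 with DESeq2, -6.4e-05 with RLE, -0.31 with library totals, -0.048 with at least 10 reads, -0.057 with 13 libraries and -0.027 with limma, and in DKO -0.23 with library totals, -0.021 with at least 10 reads and -0.033 with 13 libraries. *Icosl* was 0.25 and 0.17 with 13 libraries, since WT mouse 11 is low, and *Cd83* in IL10RAKO was -0.091 with library totals. Leaving out each mouse gave *Icosl* -0.22 to 0.16 and *Lgals9* -0.16 to 0.15 in IL10RAKO, *Lgals9* -0.023 to 0.11 in DKO, and in DKO against IL10RAKO *Cd86* -0.13 to 0.031, *Cd274* -0.22 to 0.031, *Icosl* -0.27 to 0.13 and *Lgals9* -0.11 to 0.20. Beyond WT mouse 11 for *Icosl*, the cause of these turns was not tested.

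Genes past the threshold numbered 1563 to 2735 in IL10RAKO (1485 to 2554 with a mouse left out), 1843 to 3008 in DKO (1691 to 2995) and, in DKO against IL10RAKO, 24 with DESeq2 against 6 (4 to 10 with a mouse left out). No paired analysis was possible because the groups hold different mice and replicate numbers follow accession order. The p-values set each difference against a spread between mice that was estimated over all the genotypes fitted together. With 4 mice a genotype, a count of 0 in DKO against IL10RAKO does not show that the genotypes are alike.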
